A study of Mus musculus with 15 samples.

Results

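The clustered histone genes are the genes of the mouse Hist1, Hist2, Hist3 and Hist4 loci, which encode the core histones H2A, H2B, H3 and H4 and the linker histone H1. They were chosen by symbol: all protein-coding genes of the mm9 annotation (GENCODE vM1) whose name starts with Hist1h, Hist2h, Hist3h or Hist4h, which gave 67 genes of 22342 protein-coding genes on chromosomes 1 to 19 and X. The study asked how the transcription factor Pax6 relates to methylation of lysine 4 of histone H3 (H3K4). It used αTN4, mouse lens epithelial cells immortalised by the SV40 T antigen, and lens tissue. The αTN4 cells carried a lentiviral control shRNA or a lentiviral Pax6 shRNA (Pax6 KD; the methods name the construct sh2 for ChIP-seq) and were selected with puromycin for 14 days as stably infected populations, not as single clones. The tissue was newborn lens of CD-1 mice (postnatal day 1, untreated), profiled for H3K4me2 only. Chromatin immunoprecipitation with sequencing (ChIP-seq) gave 9 lists of enriched regions. In control cells these were Pax6, RNA polymerase II (Pol2), H3K4me1, H3K4me2 and H3K4me3, in Pax6 KD cells H3K4me1, H3K4me2 and H3K4me3, and in lens H3K4me2. The antibody field of the Pax6 and Pol2 libraries is swapped against their titles, and the libraries were assigned by title. The lists held from 504 regions (Pax6) to 66274 (H3K4me2 in control cells), and the Pol2 list 17204.

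Each list comes from 1 library, so no difference has a replicate check and no test was made. Counts carry 95% Wilson intervals, which cover counting error only, and neighbouring histone genes often share 1 region, so they are not independent. The read depth of the MACS2 libraries is unknown. A gene counts as having a region if one lies within 2 kb of any of its annotated starts. Strength is the percentile of the fold enrichment of the gene's strongest such region within its own list (100 is the strongest region of the list), because folds of different libraries are not on 1 scale. In these dense loci the strongest region can be that of a neighbouring gene. Against their labels, 6 of 13 lens genes, among them Pax6, Six3 and Prox1, had a Pol2 region in αTN4, 7 had an H3K4me2 region there and 12 had one in lens. Of 9 marker genes of other cell types, 1, 0 and 2 had such a region; the defining lens genes Mip and Lim2 had none in αTN4.

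Clustered histone genes are switched on in S phase, when new DNA has to be packed into nucleosomes. Most have no intron, and their mRNAs end in a conserved stem-loop in place of a poly(A) tail. Npat drives their transcription at the histone locus body, and Slbp binds the stem-loop and carries the mRNA through processing and translation. H3K4me3 usually marks the start of active genes, H3K4me2 a wider zone around it, and H3K4me1 the flanks and enhancers.

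The 67 genes comprise 6 H1, 19 H2A, 18 H2B, 11 H3 and 13 H4 genes. The Hist1 locus on chromosome 13 holds 55 of them, Hist2 on chromosome 3 holds 9, Hist3 on chromosome 11 holds 2 (Hist3h2ba and Hist3h2a) and Hist4 on chromosome 6 holds 1 (Hist4h4). Parted wherever neighbours lie more than 100 kb apart, they form 8 runs, the largest with 29 genes over 232.6 kb and with 18 genes over 117.6 kb. The genes are short: the median coding sequence is 390 bp (309 to 669) and 61 have a single exon. In 13 divergent pairs, 12 of them an H2A and an H2B gene back to back, the starts lie 167 to 692 bp apart (median 240 bp).

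The promoters below were chosen for strong Pol2, so their cover by it is not a separate result. Pol2 covered every base of them. H3K4me3 in control cells covered none of the first and the last, 56 of the 150 bases at Hist1h1b and 97 of the 150 at Hist2h3b. They belong to the H2A-H2B pair and the H1, H3 and H4 gene with the strongest Pol2 region of their class within 2 kb (Pol2 percentiles 99.77, 99.85, 99.98 and 99.80). For Hist1h1b that region covered the start of its neighbour Hist1h3i, and the region on its own start stood at percentile 99.61 (fold 55.5, 2820 bp). All are from the mm9 genome, 5′ to 3′, the pair as the stretch between its starts without the 60 bases beside Hist1h2bl, whose record has no 5′ UTR, and the others as the 150 bases before the start. Capitals mark letters of the searched motifs on either strand. The pair lies at chr13:21808073-21808280 (+, Hist1h2ai to the right), Hist1h1b at chr13:21872495-21872644 (−), Hist2h3b at chr3:96072427-96072576 (+) and Hist1h4d at chr13:23673317-23673466 (+).
Hist1h2bl-Hist1h2ai: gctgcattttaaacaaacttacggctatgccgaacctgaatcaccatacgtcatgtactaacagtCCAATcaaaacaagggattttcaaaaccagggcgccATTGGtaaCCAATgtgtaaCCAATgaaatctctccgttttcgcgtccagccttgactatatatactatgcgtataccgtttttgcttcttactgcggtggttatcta
Hist1h1b: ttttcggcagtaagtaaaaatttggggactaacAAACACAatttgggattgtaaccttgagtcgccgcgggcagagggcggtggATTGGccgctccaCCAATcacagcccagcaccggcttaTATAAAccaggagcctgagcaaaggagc
Hist2h3b: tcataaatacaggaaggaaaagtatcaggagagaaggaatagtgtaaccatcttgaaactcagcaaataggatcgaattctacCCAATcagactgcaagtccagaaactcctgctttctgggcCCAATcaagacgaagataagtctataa
Hist1h4d: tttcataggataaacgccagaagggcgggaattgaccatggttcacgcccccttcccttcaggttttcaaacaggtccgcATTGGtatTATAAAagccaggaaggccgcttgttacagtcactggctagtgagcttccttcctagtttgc

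In the 200 bases before the start, on either strand, the CCAAT box (CCAAT, the site of the factor NF-Y) occurred in 57 of the 67 genes (85.1%, against 30.6% of all 22342 genes). It was present in all 19 H2A and all 18 H2B genes and in 4 of 13 H4 genes. The TATA box (TATAAA) occurred in 29 (43.3%, against 10.0%). The octamer (ATTTGCAT, bound by Oct1, the product of Pou2f1) occurred in 15 (22.4%, against 1.35%), 7 of them H2A and 8 H2B genes. The H1 box (AAACACA) occurred in 9 (13.4%, against 4.40%), among them 5 of 6 H1 genes. The letters of an E2F site (TTTCCCGC) occurred in 1 (1.49%, against 0.918%). The starts of divergent pairs lie a median of 240 bp apart, so in most pairs both genes were searched over partly the same bases. These counts are therefore not all of separate promoters. The start used is that of the gene record. At Hist1h2be it lies 35168 bp from the coding sequence. At Hist2h3c1 it lies 1197 bp before it, beside the start of Hist2h2aa1. The bases searched for these genes need not be their own promoters. TATAAA and AAACACA can overlap by the letters AAA, and a match is a description of the sequence only. The median GC content of these 200 bases was 44.5%, against 55.5% for all genes.

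The 3′ stem-loop, searched on the coding strand as the letters GGNNCTTTT followed at once by NAGNNCC, within 200 bases after the coding end, was present in 58 of the 67 genes and in 63 of all 22342 genes (0.282%). The 5 other genes were H2afx, which encodes the variant H2A.X, and 1700014N06Rik, AI646023, Nova2 and Zfp521. It lay 24 to 61 bases after the coding end (median 34) in 6 spellings, of which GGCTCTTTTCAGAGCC was used by 36 genes, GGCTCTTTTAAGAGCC by 9 and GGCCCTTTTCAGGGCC by 8. The coding end is that of the longest annotated coding sequence. Among the 9 genes without a match it lies past an intron at Hist2h2bb, Hist1h2bp, Hist1h2bq and Hist1h2br. The bases after the first coding exon of these genes were not searched. The commonest spelling and its loop variant are shown, together with the third, at the 3′ ends of genes whose promoters are above. Capitals are the stem-loop, at chr13:21808708-21808723 (+) for Hist1h2ai, chr13:21807587-21807602 (−) for Hist1h2bl and chr13:23673819-23673834 (+) for Hist1h4d.
Hist1h2ai: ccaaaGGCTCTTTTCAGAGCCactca
Hist1h2bl: tcaaaGGCTCTTTTAAGAGCCaccca
Hist1h4d: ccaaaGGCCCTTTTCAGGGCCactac

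Many histone genes are near copies of others of their class, which limits what short reads can resolve. A coding span here runs from the first to the last coding base and includes any intron. Of the 32-base words in a histone coding span, a median of 23.0% occur once in mm9 (0 to 100%), and 52 of the 67 genes are under 50%. The H1 genes, from 67.3% at Hist1h1d to 100% at Hist1h1t, and Hist4h4 (99.7%) are among the exceptions. In the 1 kb before the start the median is 82.9%. Hist2h2aa1 and Hist2h2aa2, and the trio Hist1h2bq, Hist1h2ao and Hist1h4m and its inverted counterpart Hist1h4n, Hist1h2ap and Hist1h2br, had at most 6.47% of such words in the coding span. How the aligner treated reads with several matches is not given in the sources used here.

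Nearly every clustered histone gene carried Pol2 in control αTN4 cells, and the regions were among the strongest of the list. A Pol2 region lay within 2 kb of 66 of 67 genes (98.5%, interval 92.0 to 99.7), against 48.0% of all protein-coding genes. It covered the start of 63 (94.0%), against 81.4% of other genes with a Pol2 region within 2 kb. The median percentile was 99.4, against 70.6 over all genes with a region and 96.1 over the ribosomal protein genes, a set that is transcribed at a high rate. In the deposited unit, the fold enrichment over the MACS2 background, the median was 48.8 (9.54 to 79.9), and the median of the whole Pol2 list was 9.74. The percentiles barely varied by class, with medians of 99.3 for H1, 99.3 for H2A, 99.2 for H2B, 99.8 for H3 and 99.3 for H4. The map of percentiles by gene shows the same across the runs.

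**Figure D1:**
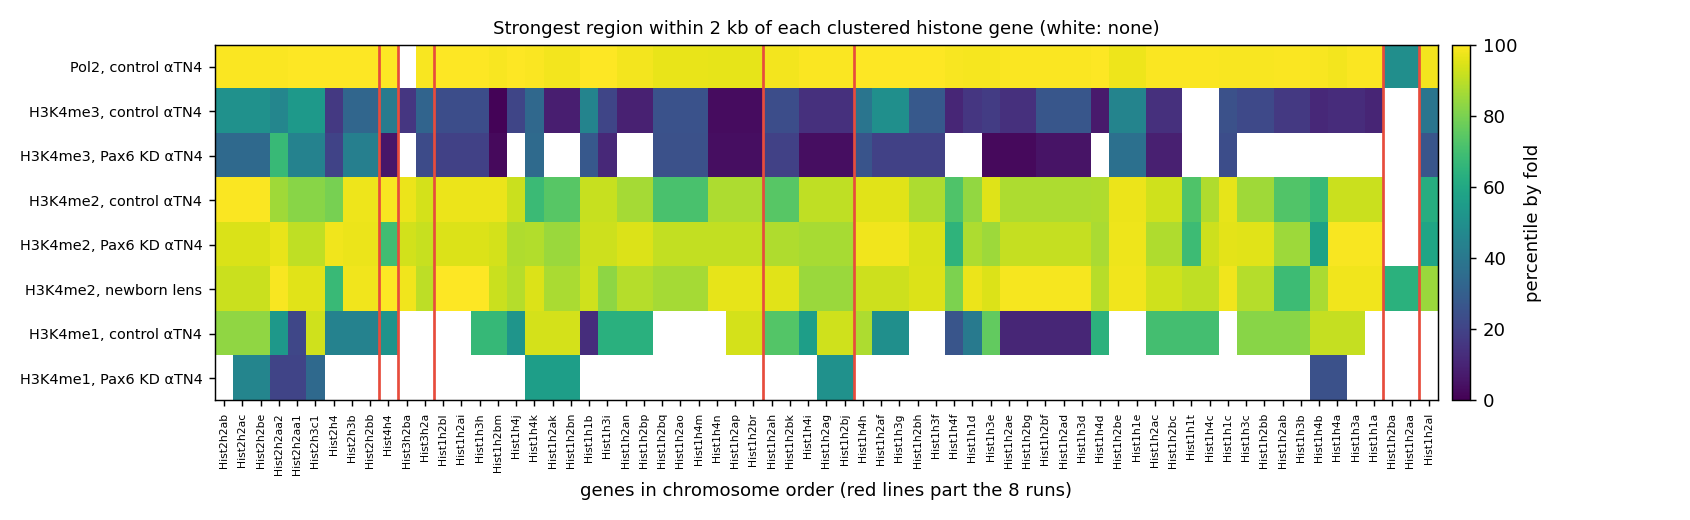
Each column is 1 of the 67 clustered histone genes in chromosome order and each row 1 of 8 region lists; colour gives the fold-enrichment percentile of its strongest region within 2 kb, and white means no region. The Pol2 row is near 100 except at Hist3h2ba (none) and the pair Hist1h2ba and Hist1h2aa (49.4), the H3K4me3 rows stay low, and the Pax6 KD rows of H3K4me3 and H3K4me1 hold more white cells than the control rows.

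The strongest Pol2 region was shared by Hist2h3b, an H3 gene, and Hist2h2bb, an H2B gene: its fold was 79.9, its percentile 99.98 and its width 2234 bp. The weakest was shared by Hist1h2ba and Hist1h2aa, the testis-specific H2B and H2A genes, with a fold of 9.54, a percentile of 49.4 and 328 bp; it covered 74.8% of the coding span of Hist1h2ba and neither start. At Hist1h1b, Hist1h2bh and Hist1h3a the strongest Pol2 region was a neighbour's, and a weaker one covered their own start. Hist1h1t, the testis-specific linker histone gene, counted as having Pol2 (fold 53.6) because the 2412 bp region of its neighbour Hist1h4c lay within 2 kb, but no Pol2 covered its own coding span. Hist3h2ba was the only member with no Pol2 region within 2 kb, while its neighbour Hist3h2a had one with a fold of 42.6 (percentile 98.96, 1558 bp).

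The Pol2 regions were wide. The 39 regions at histone genes had a median width of 2546 bp and reached 7554 bp, against a median of 710.5 bp for the regions at all protein-coding genes. Of the 39, 19 were in the widest 1% of the whole list, 33 in the widest 5% and 24 in the top 1% by fold. The 5 widest covered 15 histone gene starts. The widest, 7554 bp and the 5th widest of all 17204, spanned the starts and whole coding sequences of Hist1h2ae, Hist1h2bg, Hist1h2bf, Hist1h2ad and Hist1h3d. The next, 6692 bp, covered Hist1h4h, Hist1h2af and Hist1h3g, and one of 5188 bp covered Hist1h4i, Hist1h2ag and Hist1h2bj. One of 4938 bp covered Hist1h4n, Hist1h2ap and Hist1h2br, which lie in the near-identical inverted repeat, and one of 4710 bp covered Hist2h2aa2 alone.

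**Figure D2:**
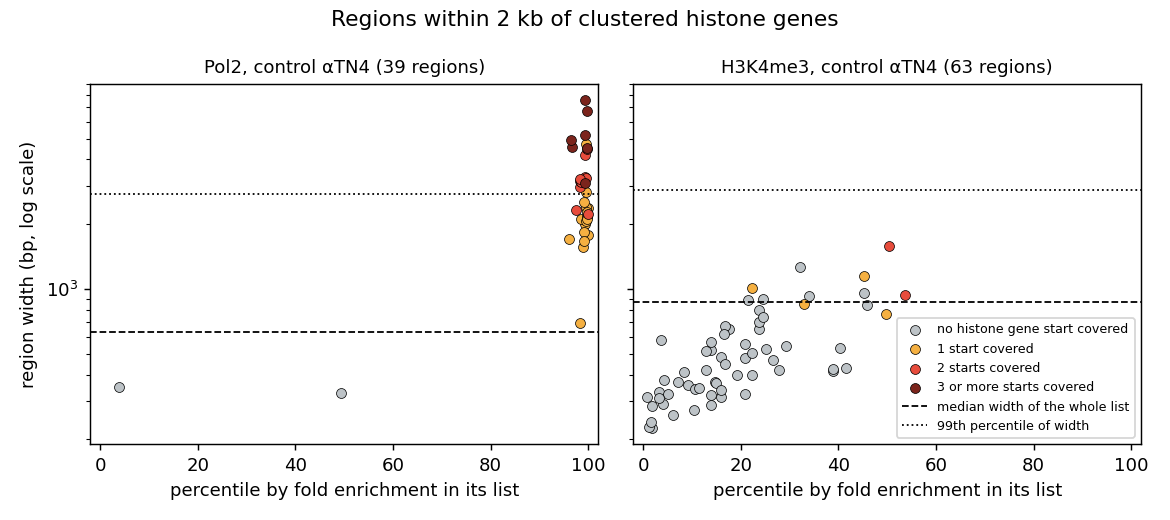
Each point is 1 region within 2 kb of a clustered histone gene, by its percentile of fold enrichment (x) and its width in bp (y, log scale); colour gives the number of histone gene starts inside it, and the lines mark the median and the 99th percentile of width in the whole list. The Pol2 regions gather at the strong and wide corner with a median width of 2546 bp, and the H3K4me3 regions lie at low percentiles with a median of 449 bp.

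Pol2 covered most coding spans from end to end and reached past them. It covered the whole coding span of 60 genes, a part of 4 and none of 3. Where it covered the stop codon side, in 62 genes, it ended a median of 1220.5 bp downstream. It lay over the stem-loop in 55 of the 58 genes that have one, and ran a median of 1240 bp past it. The 3 without were Hist3h2ba, Hist1h1t and Hist1h2aa. In regions that join genes these distances run across neighbouring genes, as at Hist1h4h (5608 bp) and Hist1h2bg (5655 bp past the coding end). They are therefore not the extent of Pol2 from 1 gene alone. Cover of whole coding spans was not counted for all genes.

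One Pol2 region often joined several genes. Of the 67 starts, 43 (64.2%, interval 52.2 to 74.6) lay in a region that also covered another histone gene start, and 8.26% of all protein-coding genes shared a Pol2 region with another gene start. The 37 regions on histone starts covered 1 start in 20 cases, 2 in 10 and 3 or more in 7, up to 5. These genes lie close together, and among genes with another start within 5 kb, 45 of 60 histone genes (75%) and 42.8% of 4207 other genes were joined. In 11 of the 13 divergent pairs a single Pol2 region covered both starts. The exceptions were Hist1h2bh with Hist1h3f, the widest gap, and Hist1h2ba with Hist1h2aa.

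H3K4me3 was present at nearly all of these genes but was weak and narrow there. In control cells 63 of 67 genes (94.0%, interval 85.6 to 97.7) had a region within 2 kb, against 49.1% of all genes. The 4 without were the testis-specific Hist1h1t, Hist1h2ba and Hist1h2aa, and Hist1h4c. The median percentile was 23.8 and no member passed 53.7, whereas the median over all genes with a region was 66.8 and that of the ribosomal protein genes 92.6. The median fold was 9.06 (4.06 to 18.5), and that of the whole list was 17.4. By class the median percentile was 24.6 for H1, 24.5 for H2A, 22.2 for H2B, 23.8 for H3 and 15.3 for H4.

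Other genes with strong Pol2 had a higher median H3K4me3. Of the 865 other genes with a Pol2 region at or above percentile 95 (median 97.4), 860 had H3K4me3, with a median percentile of 80.2 and a median width of 1500 bp. Of the 64 histone genes above the same limit (median 99.4), 62 had it, with 23.8 and 504 bp. At or above Pol2 percentile 99, a limit chosen after seeing the data, the median Pol2 percentiles were 99.4 in 142 other genes and 99.6 in 44 histone genes. There 141 other genes had H3K4me3 at a median of 85.5 (lower quartile 69.8) and 42 histone genes at 23.8. Gm17658, a gene inside the Hist1 locus, shares the Pol2 region and the H3K4me3 region of Hist1h4d. Its H3K4me3 value (percentile 7.24, 371 bp) is therefore that of Hist1h4d and not a separate case. H2afx, the H2A.X gene outside the clusters that also carries the stem-loop, had Pol2 at percentile 99.5 over 3742 bp and H3K4me3 at percentile 80.5 over 1985 bp.

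The highest H3K4me3 values lay in the Hist2 locus. The region of Hist2h2aa1 and Hist2h3c1 had a fold of 18.5 (percentile 53.7, 939 bp), and that of Hist2h2ab, Hist2h2ac and Hist2h2be had 17.7 (percentile 50.5). The latter, at 1586 bp, was the widest H3K4me3 region at any member and covered the starts of Hist2h2ab and Hist2h2ac. The next widest were 1263 bp at Hist3h2a, 1150 bp at Hist1h1b, 1012 bp on the start of Hist1h2af and 955 bp beside Hist1h1e. The lowest value was that of Hist1h2bm, an H2B gene, with a fold of 4.06 (percentile 0.905, 315 bp), next to a Pol2 fold of 41.9.

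The 63 H3K4me3 regions at histone genes had a median width of 449 bp, and 54 were narrower than the median of the whole list (867 bp); none was in the widest 5%. Of the 63, 60 lay wholly inside a Pol2 region, against 11.6% of the 13323 H3K4me3 regions at other genes. Only 8 of 67 genes (11.9%) had H3K4me3 on the start itself, against 52.2% of other genes with an H3K4me3 region within 2 kb. The ribosomal protein genes stood at 59.5%. For Pol2 the shares were 63 of 67 (94.0%), 81.4% and 92.4%. H3K4me3 covered a median of 74.9% of the coding span, all of it in 10 genes and none in 11. It reached past the coding end in 49 genes, by a median of 181 bp, and reached back over the start codon in 12. No H3K4me3 region covered both starts of any of the 13 divergent pairs. In control cells 4 of 67 genes (5.97%, interval 2.35 to 14.4) had their start in a region with another histone gene start, against 4.77% of all genes. They were Hist2h2ab with Hist2h2ac, and Hist2h2aa1 with Hist2h3c1. The latter 2 have nearly the same annotated start (96049461 and 96049477), which for Hist2h3c1 lies 1197 bp before its coding sequence. In Pax6 KD cells no start was joined (against 3.66%). Among genes with another start within 5 kb, H3K4me3 joined 4 of 60 histone genes (6.67%) and 25.2% of the 4207 others in control cells, and none of 60 and 19.4% in Pax6 KD cells. Counting starts within 1 kb of the same region as joined, the share of the 67 was 65.7% in control and 41.8% in Pax6 KD cells.

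**Figure D3:**
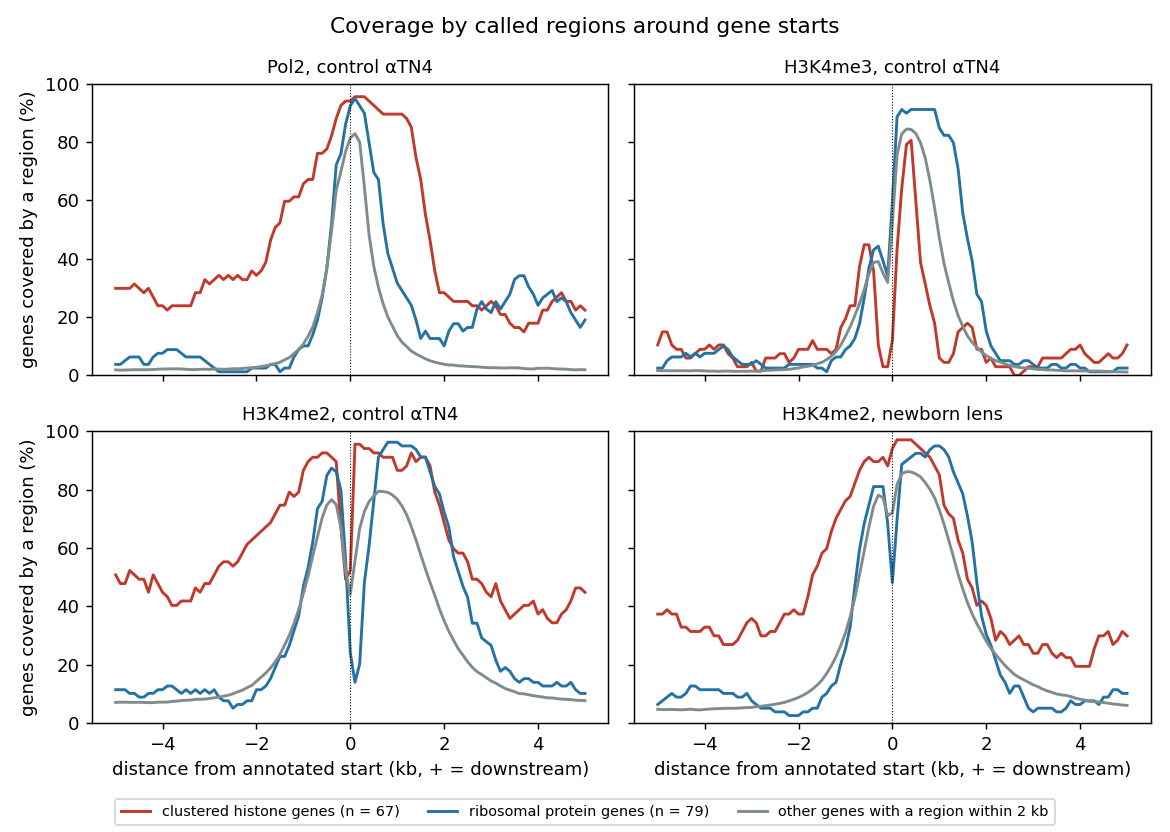
Share of genes (%) covered by a region at each distance from the annotated start, for the 67 clustered histone genes, the 79 ribosomal protein genes and other genes with a region within 2 kb. At the histone genes Pol2 covers 94.0% of starts and still 89.6% of positions 1 kb downstream, H3K4me3 covers 11.9% at the start and 80.6% at its highest point 0.4 kb downstream, and H3K4me2 is cut at the start in αTN4 (52.2%) and not in lens (94.0%).

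The position of H3K4me3 coincided with the repeated part of these genes. A median of 48.6% of the 32-base words in the 63 H3K4me3 regions occur once in mm9, and 80.6% in the 39 Pol2 regions; the part of this in the H3K4me3 values was not tested. In the 15 genes with at least 50% single-copy words in the coding span, H3K4me3 was present at 12, with a median percentile of 32.6 (9.22 to 50.5) and a median width of 794.5 bp. In the 52 others it was present at 51, with a median of 22.2 and 466 bp. Pol2 percentiles were 99.4 and 99.3 in the same groups. Of the 15, Hist2h2bb (58.0%) and Hist1h2bp (78.0%) have a coding span with an intron. Hist1h2bp gave the lowest H3K4me3 value, 9.22, and its H3K4me3 region held 24.3% single-copy words. Hist1h1b, with 96.3% single-copy words, had an H3K4me3 fold of 15.9 (percentile 45.3) beside a Pol2 fold of 55.5 on its start (percentile 99.61). Hist4h4, with 99.7%, had 14.5 (percentile 41.5) beside 56.0 (percentile 99.6).

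H3K4me2 was present at nearly every histone gene in both the line and the tissue. It was present at 65 of 67 genes in control αTN4 (97.01%, interval 89.8 to 99.2, against 58.2% of all genes), at the same 65 in Pax6 KD cells (against 57.1%) and at all 67 in lens (against 66.8%). The median percentiles were 87.7, 91.2 and 92.9, against 87.7, 87.5 and 86.4 over all genes. The pair Hist1h2ba and Hist1h2aa had no H3K4me2 in αTN4 of either kind and shared a 358 bp region in lens (fold 10.9, percentile 63.7). Of the genes without H3K4me2 in control cells, 28.0% had it in lens, and none of the 65 genes with it lacked it in lens (5.37% of all genes did). Hist4h4 had the highest lens value, at percentile 99.99, against 98.8 in control and 69.4 in Pax6 KD cells. Its folds were 25.5 in control cells, 12.1 in Pax6 KD cells and 44.0 in lens. The median folds of these whole lists were 6.90, 7.36 and 6.58.

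The line and the tissue differed in where H3K4me2 lay. In control αTN4 cells a region covered the annotated start of 35 genes, in Pax6 KD cells 29, and in lens 63. It joined 17 starts (25.4%, interval 16.5 to 36.9, against 3.20%) in control cells, 11 (against 2.22%) in Pax6 KD cells and 44 (65.7%, interval 53.7 to 75.9, against 7.66%) in lens. Among genes with another start within 5 kb, the shares of histone and other genes were 30% and 16.5% in control cells, 20% and 11.5% in Pax6 KD cells, and 76.7% and 39.5% in lens. In lens 1 region covered both starts of 12 of the 13 divergent pairs, all but Hist1h2ba with Hist1h2aa. In control cells this held for 3, namely Hist2h2ac with Hist2h2be, Hist1h2bl with Hist1h2ai, and Hist1h2bh with Hist1h3f. When regions less than 500 bp apart were merged, 76.1% of the starts were joined in both αTN4 lists and 68.7% in lens, so the order of line and tissue turned. It turned too when starts within 1 kb of a region were counted (77.6% in control cells, 76.1% in Pax6 KD cells, 71.6% in lens). At all genes the start was likewise covered less often in control αTN4 (25.8%) than in lens (48.2%).

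H3K4me1 was present at 50 of 67 genes in control cells (74.6%, interval 63.1 to 83.5, against 36.0% of all genes), mostly beside the genes and not on them. It covered the start of 8 of the 67 (11.9%) and none of the coding span of 54. The start was also mostly free of H3K4me1 elsewhere. It was covered in 23.8% of other genes with a region within 2 kb and in 3.80% of the ribosomal protein genes. The 30 islands, as the SICER program calls its regions, held a median of 58 ChIP reads (30 to 285). At Hist2h2ab, Hist2h2ac and Hist2h2be the shared island was 7400 bp wide with a fold of 5.02 over input.

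Pax6 knock-down was followed by fewer H3K4me3 regions at histone genes and by no loss of H3K4me2. All 65 genes with control H3K4me2 had it at percentile 50 or above, where 21 of 11972 other genes (0.175%) lost it. H3K4me3 was called at 46 of 67 genes in Pax6 KD cells (68.7%, interval 56.8 to 78.5, against 47.8% of all genes). Of the 63 genes with it in control cells 17 had none (27.0%, interval 17.6 to 39.0), whereas 3.18% of all genes with control H3K4me3 had none. None of the 4 members without control H3K4me3 gained a region (0.466% of all such genes did).

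The 17 genes were Hist3h2ba, Hist1h4j, Hist1h2ak, Hist1h2bn, Hist1h2an, Hist1h2bp, Hist1h4f, Hist1h1d, Hist1h4d, Hist1h3c, Hist1h2bb, Hist1h2ab, Hist1h3b, Hist1h4b, Hist1h4a, Hist1h3a and Hist1h1a. They comprised 2 of 5 H1, 3 of 18 H2A, 4 of 17 H2B, 3 of 11 H3 and 5 of 12 H4 genes with control H3K4me3. In the 29-gene run 11 of 27 were lost, and the last 8 genes of it, from Hist1h3c to Hist1h1a, formed an unbroken stretch. In the Hist2 locus none of 9 was lost. All 17 had weak control regions, from percentile 7.24 at Hist1h4d to 22.2 at Hist1h3c and Hist1h2bb.

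Loss followed the strength of the control region, at histone genes and elsewhere. Below percentile 10 it took 5 of 9 histone genes (55.6%, interval 26.7 to 81.1) and 56.5% of other genes (51.1 to 61.8). From 10 to 20 it took 9 of 18 (50%, interval 29.0 to 71.0) and 33.1% (28.3 to 38.3), and from 20 to 30 it took 3 of 18 (16.7%, interval 5.84 to 39.2) and 5.29% (3.71 to 7.50). Above percentile 30 none of 18 histone genes and 10 of 9700 other genes lost their region. Histone genes in a class can share a region, as Hist1h3c and Hist1h2bb do, and the difference within a class was not tested.

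**Figure D4:**
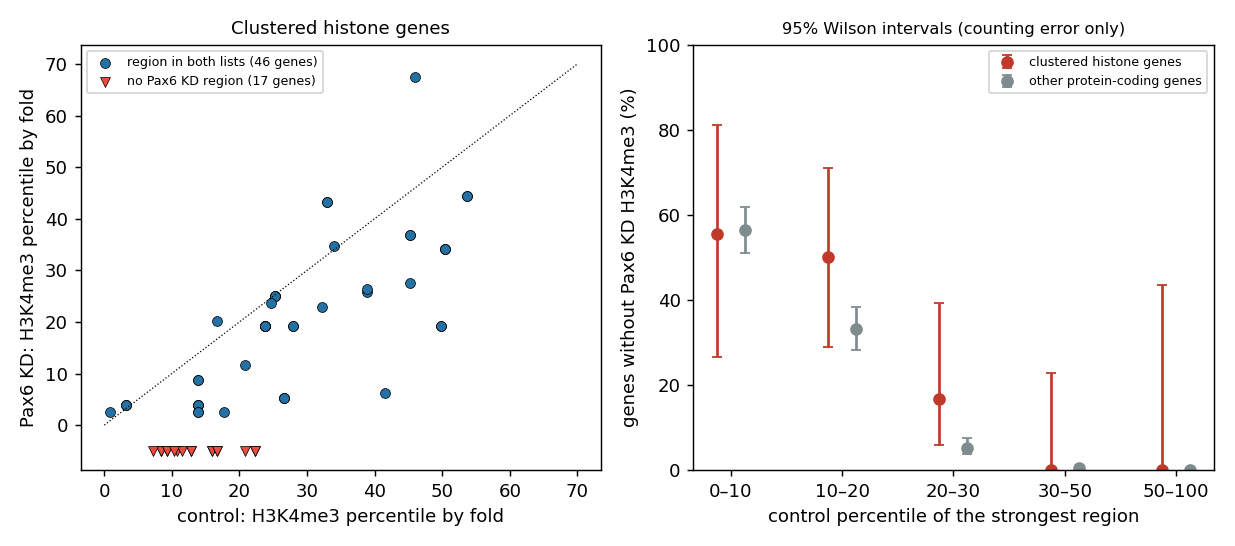
Left, the H3K4me3 percentile by fold of each clustered histone gene in control (x) and Pax6 KD cells (y), with the 17 genes without a Pax6 KD region as triangles below 0; several genes share a point. Right, the share of genes (%) without a Pax6 KD region by control percentile, for clustered histone genes and other protein-coding genes, with 95% Wilson intervals; both fall from over 50% to near 0.

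Of the 46 genes with H3K4me3 in both lists, 37 stood at a lower percentile in Pax6 KD cells, against 58.6% of all genes with both. The median change was −8.62 percentile points (all genes −1.68). The largest falls were those of Hist4h4, from percentile 41.5 to 6.25 (fold 14.5 to 5.15), and Hist1h3g, from 49.8 to 19.3. The largest gain was that of Hist2h2aa2, from 45.9 to 67.4; its coding span holds no single-copy words. At Hist2h2ab, Hist2h2ac and Hist2h2be the strongest region went from 1586 to 899 bp and from percentile 50.5 to 34.2 (fold 17.7 to 9.77). Folds of these lists are not on 1 scale. The median fold of the whole H3K4me3 list was 17.4 in control and 13.1 in Pax6 KD cells. The region was at least 1.5 times narrower at 14 of the 46 (against 9.81%) and at least 1.5 times wider at 4 (against 2.43%).

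Matched by overlap and not by gene, 27 of the 63 control H3K4me3 regions (42.9%, interval 31.4 to 55.1) had no overlapping Pax6 KD region, against 8.06% of the 13321 regions at other genes. For H3K4me2 this was 2 of 61 (3.28%, against 5.30%). All 65 genes with H3K4me2 kept it, against losses of 2.67% over all genes and 0.175% over other genes at control percentile 50 or above. In Pax6 KD cells 40 stood at a higher percentile and 25 at a lower one (57.8% of all genes with both stood lower). Only 2 genes had no control H3K4me2, and neither gained it (against 1.07% of all genes without it). Among the 15 genes with mostly single-copy coding spans, 3 of the 12 with control H3K4me3 had none in Pax6 KD cells (25%). They were Hist1h1d, Hist1h1a and Hist1h2bp, and the span of Hist1h2bp includes an intron.

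H3K4me1 islands were called at 12 genes in Pax6 KD cells (17.9%, interval 10.6 to 28.7, against 16.8% of all genes). Of 50 genes with an island in control cells, 38 had none (76.0%, interval 62.6 to 85.7), against 56.5% of all genes. The whole list fell from 38007 to 18417 islands, and the reads inside islands from 3289553 to 1849269. The 12 that remained were Hist2h2ac, Hist2h2be, Hist2h2aa1, Hist2h2aa2 and Hist2h3c1 in the Hist2 locus, and Hist1h4k, Hist1h2ak, Hist1h2bn, Hist1h2ag, Hist1h2bj, Hist1h4b and Hist1h4a. All 12 stood at a lower percentile by fold than in control cells (against 54.4% of all genes with both), with medians of 45.4 and 92.0. Ranked by ChIP reads per kb, 10 stood lower and 2 higher, with medians of 57.0 and 84.5. None of the 17 histone genes without a control island gained one (against 1.73% of all such genes).

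No clustered histone gene had a Pax6 region within 2 kb (0 of 67, upper bound 5.42%, against 0.255% of all genes). A single Pax6 region, on chromosome 13 with a fold of 6.34, lay within 50 kb of any: 11.2 kb from Hist1h4h, 14.1 kb from Hist1h2af, 15.6 kb from Hist1h3g, 23.1 kb from Hist1h2bh, 24.2 kb from Hist1h3f, 31.4 kb from Hist1h4f, 35.2 kb from Hist1h1d and 41.7 kb from Hist1h3e. All 8 had control H3K4me3, and of these Hist1h4f and Hist1h1d were without it in Pax6 KD cells. Among all members with control H3K4me3, 17 of 63 (27.0%) were without it. A link to the Pax6 region was not tested, and the share of all genes within 50 kb of a Pax6 region was not counted. The median distance over the 67 genes was 532.7 kb.

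The machinery that makes and processes histone mRNA was a list of 28 symbols, of which 27 were found. In control cells Pol2 was present at 26 (96.3%, against 48.0% of all genes) and H3K4me3 at all 27 (against 49.1%), and in Pax6 KD cells H3K4me3 was again present at all 27 (against 47.8%). The median control percentiles were 72.4 and 73.8, against 70.6 and 66.8 over all genes with a region. Npat had Pol2 at percentile 51.9 and H3K4me3 at 80.5, and Slbp 98.6 and 60.6. Zcchc11, a uridylyltransferase, was the one gene without Pol2. Of 12 replication-independent histone genes, which encode variants such as H3.3 and H2A.Z, 8 had Pol2 and the same number H3K4me3 (66.7%), with median percentiles of 92.6 and 87.5. H3f3b, one of the H3.3 genes, had Pol2 at 99.9 over 4243 bp and H3K4me3 at 95.3 over 2111 bp. In both lists no gene had H3K4me3 in 1 αTN4 list and not in the other.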

How the data were processed

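ChIP-seq reads were aligned by the authors to mm9 with Bowtie and blacklisted regions were removed. MACS2 peaks were deposited with the fold enrichment (a ratio) and −log10 p-value and q-value; H3K4me1 was deposited as SICER islands (200 bp windows, 600 bp gaps) with read counts, p-values and fold over input. Versions, pooling and the SICER control library are not given in the sources used here. Every condition has 1 library; input and RNA-seq libraries were not analysed here.

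Regions were assigned to 45993 transcript starts of GENCODE vM1 in Python 3.11.15 with pandas 2.3.3, NumPy 2.4.6, SciPy 1.17.1 and pysam 0.24.0, after the assignment was tested on simulated data. All 9 lists lay within the mm9 chromosomes. Sequences came from the mm9 genome. The members, gene lists, motifs and named genes were chosen with earlier results of these data known. Named with values were all Hist2, Hist3 and Hist4 genes that a result turns on, testis-specific genes, genes lacking Pol2 or H3K4me3 or differing between lists, those within 50 kb of Pax6, the 5 widest regions, and the extremes. Alternatives covered the window (1 kb, 5 kb, start covered), a stricter threshold (−log10 q of at least 5, FDR of at most 1e-06), a 100 bp overlap, single starts, merged regions and other measures of strength.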

Additional observations from a re-analysis of the deposited data

How the results depend on the processing

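No paired analysis was possible because every condition has 1 library and no result comes from a test. Of 130 values under 32 results, 97 stayed inside the counting interval of the reported value (or the order-statistic interval of a median) and 33 moved out; the cause was not tested.

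When a region had to cover the start of any transcript, the share of histone genes fell to 11.9% for H3K4me3 in control cells, 5.97% in Pax6 KD cells, 55.2% for H3K4me2 in control cells, 44.8% in Pax6 KD cells and 94.0% in lens, 11.9% for H3K4me1 in control cells and 0% in Pax6 KD cells, and the median H3K4me3 width rose to 975.5 bp in control and 722.5 bp in Pax6 KD cells. Within 5 kb, H3K4me1 reached 85.1% in control cells. With starts within 1 kb of a region counted, 65.7% of genes were joined by H3K4me3 in control and 41.8% in Pax6 KD cells, and 77.6% and 76.1% by H3K4me2. With regions closer than 500 bp merged, these were 20.9% for H3K4me3 in control cells and 76.1% for both αTN4 H3K4me2 lists, above the 68.7% in lens.

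Ranked by −log10 q, the median H3K4me2 percentile in Pax6 KD cells was 89.9, and ranked by ChIP reads per kb those of H3K4me1 were 53.4 over 50 genes in control and 57.0 over 12 in Pax6 KD cells, the reverse of the order by fold (70.3 and 45.4); over the 12 genes with both, the order held. Among the 15 genes with at least 50% single-copy words (chosen after seeing the data), the shares were 100% for Pol2, 80% for H3K4me3 in control cells, 86.7% for H3K4me2 in both αTN4 lists, 60% and 6.67% for H3K4me1 in control and Pax6 KD cells, with 88.9% of its genes losing it. Their median percentiles were 32.6 and 27.6 for H3K4me3, 93.4 and 94.5 for H3K4me2 in control and Pax6 KD cells, and 51.3 for H3K4me1 in control cells. With a Pol2 limit of percentile 99 in place of 95 (also chosen after seeing the data), the median H3K4me3 percentile of other genes was 85.5. The share of genes losing H3K4me3 ranged from 20.6% (5 kb) to 33.9% (1 kb).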

Other observations

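Beside the histone genes, 3 other protein-coding genes have their start inside the runs. Trim17, a ubiquitin ligase gene, shares its Pol2 region (percentile 98.96, 1558 bp) with Hist3h2a, and Gm17658 shares that of Hist1h4d (percentile 99.8, 2189 bp). Hfe, the haemochromatosis gene, had no Pol2 region within 2 kb; its H3K4me3 stood at percentile 17.7 (483 bp) in control cells and was not called in Pax6 KD cells.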
